A study of Mus musculus with 9 samples.

Results

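The genes described here are 41 mouse genes of the cell cycle and DNA replication, measured in Neuro2A neuroblastoma cells that received the calcium channel fragment CCAT. They were taken by gene symbol, and every array feature annotated with 1 of these symbols was used. They comprise 3 D-type cyclins of G1, 16 S-phase genes and 22 mitotic genes. No feature of cyclin B1, Ccnb1, was analysed here, so 40 genes were measured, among 16501 named genes on 1 platform (43 features) and among 19085 on the other (63 features).

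CCAT is a fragment from the C-terminal end of the channel CaV1.2 that acts in the nucleus, and the arrays were made to find its target genes. All 3 groups held 3 two-colour Agilent arrays each. Neuro2A is a cell line that grows in culture, and its cells were transfected with Lipofectamine and sorted for GFP 24 hours later. In the first group, cells carrying the full-length construct (FL, the last 503 amino acids of the channel) were compared with untransfected cells, which had also passed through the sorter. In the second, cells carrying the truncated construct (DTA, the last 280 amino acids, described as lacking the activation domain) were compared with untransfected cells. In the third, on the other platform, cells carrying FL in the plasmid PA1 were compared with cells that received PA1 alone. The labels also write DTS for the truncated construct. They do not say whether the 3 arrays of a group came from separate cultures, so the p-values below reflect array-to-array spread alone, and that spread may be technical.

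Cells commit to division in G1, when D-type cyclins with their kinases release E2F factors, which switch on genes for DNA synthesis. Licensing factors then load the MCM helicase onto origins, and enzymes of nucleotide synthesis feed the replication fork in S phase. Mitotic genes come on later, in G2 and M, and serve chromosome condensation, spindle assembly, the spindle checkpoint and exit from mitosis. Their promoters often hold CCAAT boxes, bound by NF-Y, and the cell cycle homology region (CHR), bound by MuvB complexes, while S-phase promoters often hold E2F sites. In a growing tumour line such as Neuro2A both sets are normally active, and their RNA levels in a culture follow the share of cells in each phase.

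The promoters of 14 S-phase and 18 mitotic genes were found in the RefSeq table (GRCm38.p6) of sequences from 250 bases before to 50 bases after each start, using the first listed window of a gene. The E2F letters searched were TTTGGCGC, TTTCCCGC, TTTCGCGC and TTTGCCGC, the CHR letters were TTTGAA, and the CCAAT box was CCAAT, all on both strands, and E2F matches may overlap each other. An E2F match was found in 6 of the S-phase promoters (42.9%), in 1 mitotic promoter (5.56%) and in 2.32% of all 27025 promoters. A CHR match was found in 1 S-phase promoter (7.14%), in 12 mitotic promoters (66.7%) and in 18.1% of all. CCAAT was found in 57.1% of the S-phase promoters, 83.3% of the mitotic ones and 37.9% of all. A match describes letters in the window and does not show that a factor binds there. Whether a listed start is the one used in these cells was not tested, so a window may miss the promoter of its gene.

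The promoters of Mcm5, Mcm6, Cdc6, Cdk1 and Top2a are printed 5′ to 3′ on the gene's strand. They were chosen with the values known, as genes that share a motif and whose ratios went different ways. They are examples and do not describe the genes with a motif as a set. Mcm5 and Mcm6 are subunits of 1 helicase with E2F matches in both promoters, Cdc6 has 1 E2F match and rose with FL but fell with DTA, and Cdk1 and Top2a both hold CHR and CCAAT matches, Cdk1 with the E2F match of the mitotic set as well. Capitals mark matches to any of these motifs on either strand.
Mcm5, chr8:75109259-75109558, plus strand: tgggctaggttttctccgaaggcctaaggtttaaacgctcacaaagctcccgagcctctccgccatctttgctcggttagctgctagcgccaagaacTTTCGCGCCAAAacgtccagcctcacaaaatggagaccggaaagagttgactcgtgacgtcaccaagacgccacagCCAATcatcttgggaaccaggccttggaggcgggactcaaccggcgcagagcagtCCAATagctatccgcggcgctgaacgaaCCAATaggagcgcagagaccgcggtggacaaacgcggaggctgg
Mcm6, chr1:128359656-128359955, minus strand: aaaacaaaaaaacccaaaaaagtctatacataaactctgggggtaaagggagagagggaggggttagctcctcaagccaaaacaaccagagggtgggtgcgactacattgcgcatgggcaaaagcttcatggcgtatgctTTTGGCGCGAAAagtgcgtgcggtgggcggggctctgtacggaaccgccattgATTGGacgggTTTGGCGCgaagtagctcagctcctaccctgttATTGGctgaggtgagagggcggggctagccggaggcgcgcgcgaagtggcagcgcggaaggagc
Cdc6, chr11:98907901-98908200, plus strand: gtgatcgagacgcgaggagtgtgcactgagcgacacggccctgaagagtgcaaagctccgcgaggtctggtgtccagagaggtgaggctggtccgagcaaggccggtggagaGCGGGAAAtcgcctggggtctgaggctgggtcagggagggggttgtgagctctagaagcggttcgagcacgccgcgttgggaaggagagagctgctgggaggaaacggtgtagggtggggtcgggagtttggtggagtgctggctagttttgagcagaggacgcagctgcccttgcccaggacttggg
Cdk1, chr10:69352863-69353162, minus strand: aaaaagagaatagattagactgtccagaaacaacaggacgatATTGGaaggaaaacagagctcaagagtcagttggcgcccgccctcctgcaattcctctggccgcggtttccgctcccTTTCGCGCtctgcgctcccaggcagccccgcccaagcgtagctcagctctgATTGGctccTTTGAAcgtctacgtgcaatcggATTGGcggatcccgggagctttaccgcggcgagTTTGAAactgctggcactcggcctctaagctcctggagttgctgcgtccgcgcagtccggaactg
Top2a, chr11:99024140-99024439, minus strand: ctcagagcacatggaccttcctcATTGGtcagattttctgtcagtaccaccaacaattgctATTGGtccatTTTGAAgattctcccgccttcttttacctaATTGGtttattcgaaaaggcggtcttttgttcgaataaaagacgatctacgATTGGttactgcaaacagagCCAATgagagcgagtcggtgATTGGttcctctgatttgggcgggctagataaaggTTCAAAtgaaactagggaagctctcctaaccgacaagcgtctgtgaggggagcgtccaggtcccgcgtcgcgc

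Values are log2 ratios of the CCAT channel to the control channel, and a fold is the ratio itself. The order of the ratio was not given in the sources used here, and reading positive as higher with CCAT is a likely choice without a stated source. Its basis is a remark in the design text that PA1 by itself raised some genes, together with the interferon-stimulated gene Isg15, whose mean ratio was 4.27 for FL and 3.63 for DTA against untransfected cells but 0.26 against PA1 alone. If the ratio runs the other way, every direction below turns with it. Cy3 always marked the CCAT sample and Cy5 always the control, so a gene-specific dye effect was not separated from the ratios of a group. Ratios hold no level, so whether a gene was well expressed, and whether markers of neuroblastoma were present, could not be judged. Across genes, Pearson's r between arrays was 0.84 to 0.90 within the FL group, 0.92 to 0.95 within DTA and 0.81 to 0.83 within the PA1 comparison. The third DTA array, for which 1 label field names the full-length construct, had r of 0.92 to 0.95 with its own group and 0.73 to 0.79 with FL. Over the 40 genes the median SD between arrays was 0.042 (FL), 0.022 (DTA) and 0.019 (PA1 comparison), where all genes had 0.071, 0.041 and 0.041.

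Against untransfected cells, the cell cycle genes did not move as a block. All of them but Tyms and Cenpe were read by 1 feature on these arrays. With FL, 21 of the 40 rose and 13 fell (limma with Benjamini-Hochberg adjustment over all 16501 genes, adjusted p under 0.05), where 34.7% of all genes rose and 35.1% fell. With DTA, 15 rose and 18 fell, where 35.7% of all genes rose and 36.1% fell, and without the third DTA array, the one with the label conflict, 12 rose and 17 fell. The median log2 ratio of the 40 genes was 0.084 with FL and -0.011 with DTA, and that of all genes was -0.0020 and -0.0061. Changes of 1.5-fold or more that passed the test were seen in 5 of the 40 genes with FL (12.5%) and 7 with DTA (17.5%), against 8.47% and 10.7% of all genes. In these bulk RNA samples, fewer cells in a phase and less RNA per cell cannot be told apart. Both groups were compared with untransfected cells, and the labels do not say whether it was the same RNA, so their values are set side by side and no overlap between them is counted.

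The S-phase genes split, as all genes did. Over all genes the shares were 34.7% higher and 35.1% lower with FL, and 35.7% and 36.1% with DTA. With FL 7 of 16 S-phase genes rose and 8 fell, with a median log2 ratio of -0.061. With DTA 5 of them rose and 10 fell, with a median of -0.16. The mitotic genes had 13 of 21 higher and 4 lower with FL, with a median of 0.14, and 8 higher and 7 lower with DTA, with a median of 0.029. The median of the S-phase genes lay between -0.076 and -0.049 on the 3 FL arrays and between -0.17 and -0.16 on the DTA arrays. The median of the mitotic genes lay between 0.094 and 0.20 on the FL arrays and between 0.019 and 0.045 on the DTA arrays. On each of these 6 arrays the median of the mitotic genes was thus above that of the S-phase genes. Genes within a list spread widely on each array. The interquartile range was 0.36 to 0.49 for the S-phase genes and 0.41 to 0.54 for the mitotic genes.

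**Figure D1:**
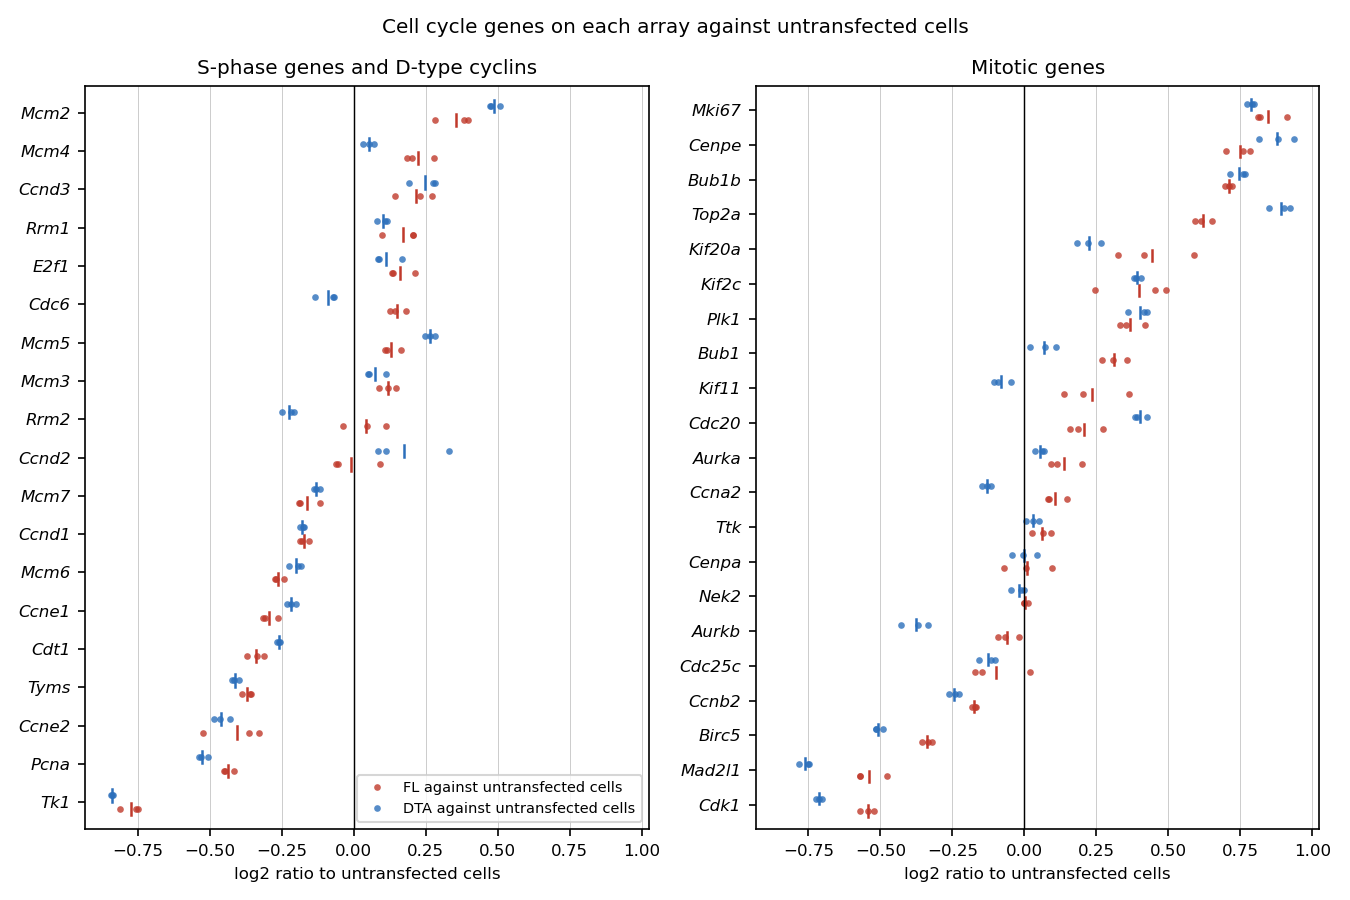
Log2 ratio to untransfected cells (horizontal axis) of each measured gene on each of the 3 FL arrays (red points) and 3 DTA arrays (blue points), with a vertical tick at each mean, S-phase genes and D-type cyclins on the left and mitotic genes on the right, ordered by the FL mean. Tk1 lies lowest among the S-phase genes in both groups, and Mki67, Cenpe, Bub1b and Top2a lie highest among the mitotic genes.

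Among the D-type cyclins, the regulatory subunits of the G1 kinases Cdk4 and Cdk6, Ccnd1 had log2 ratios of -0.15, -0.18 and -0.18 on the FL arrays and -0.17, -0.17 and -0.19 on the DTA arrays. It was lower in both groups on all arrays (adjusted p 0.000393 and 0.000316), by 1.13-fold each. Ccnd3 had values of 0.23, 0.14 and 0.27 with FL and 0.19, 0.28 and 0.28 with DTA and was higher in both (adjusted p 0.00179 and 0.000882). Ccnd2 was scattered, with 0.092, -0.062 and -0.056 for FL, on both sides of 0, and 0.11, 0.083 and 0.33 for DTA. Its DTA mean of 0.18 passed the test (adjusted p 0.0338) but rests on the third array, the one with the label conflict, without which the mean was 0.098 (adjusted p 0.137), and without the first DTA array the adjusted p was 0.0603. No D-type cyclin changed by as much as 1.5-fold.

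The E-type cyclins, which drive entry into S phase with Cdk2, were lower with both constructs. Ccne2 had log2 ratios of -0.36, -0.52 and -0.33 on the FL arrays and -0.48, -0.46 and -0.43 on the DTA arrays, a mean fall of 1.32-fold and 1.37-fold (adjusted p 0.000288 and 0.000153). The FL values spread more than the DTA values, and both sets lay wholly below 0. Ccne1 was -0.30 ± 0.029 with FL and -0.22 ± 0.016 with DTA (mean ± SD, n = 3 arrays, limma adjusted p 7.51e-05 and 0.000216). E2f1, the E2F factor that activates S-phase genes, was slightly higher, with 0.21, 0.13 and 0.14 for FL and 0.083, 0.17 and 0.088 for DTA. Its means were 1.12-fold and 1.08-fold above the control (adjusted p 0.00309 and 0.0125), and without the second DTA array the DTA mean of 0.086 was no longer called (adjusted p 0.0756).

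Both loaders of the helicase were called with each construct. Cdt1 fell with FL and with DTA, with means of -0.34 ± 0.031 and -0.26 ± 0.0052 (n = 3 arrays, limma adjusted p 4.55e-05 and 9.94e-05). Cdc6, which recruits the helicase to origins, had values of 0.13, 0.18 and 0.14 on the FL arrays and -0.13, -0.070 and -0.068 on the DTA arrays. It was above 0 on all FL arrays and below 0 on all DTA arrays, and both means passed the test (adjusted p 0.00195 and 0.0146), the DTA one not without the first DTA array (-0.069, adjusted p 0.0778).

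The 6 subunits of the MCM helicase, which act as 1 ring, went different ways within the same samples. Each was read by 1 feature on these arrays, so differences between features and between subunits cannot be told apart. With FL, Mcm2, Mcm3, Mcm4 and Mcm5 were higher, and Mcm6 and Mcm7 lower. Mcm2 had log2 ratios of 0.28, 0.40 and 0.38 with FL and 0.48, 0.51 and 0.47 with DTA, and was the highest S-phase gene in both (means 1.28-fold and 1.4-fold above the control, adjusted p 0.000119 and 3.21e-05). Mcm5 had 0.11, 0.11 and 0.16 with FL and 0.25, 0.26 and 0.28 with DTA, so every DTA array lay above every FL array. Mcm4 had 0.18, 0.20 and 0.28 with FL (adjusted p 0.000521) and only 0.033, 0.070 and 0.053 with DTA, which did not pass the test (adjusted p 0.114) but did without the third FL array (0.0409) and with the group fitted alone (0.0488). The other higher subunit, Mcm3, was 0.12 ± 0.031 with FL and 0.073 ± 0.034 with DTA (n = 3 arrays, limma adjusted p 0.00494 and 0.0314), and its DTA call was lost without any 1 of the DTA arrays (adjusted p 0.0647, 0.174 and 0.0846) and without the second FL array (0.0503). Mcm6 gave -0.27, -0.27 and -0.24 with FL and -0.18, -0.19 and -0.22 with DTA and was lower on all 6 arrays (adjusted p 9.98e-05 and 0.000252). Mcm7 was -0.16 ± 0.041 with FL and -0.13 ± 0.012 with DTA, lower in both (n = 3 arrays, limma adjusted p 0.00117 and 0.00296). The E2F letters in the Mcm5 and Mcm6 promoters printed above stood before 1 gene that rose and 1 that fell. This pair was chosen for its opposite directions. Of the 7 genes with an E2F match, 3 rose and 4 fell with FL, and 2 rose and 5 fell with DTA. The 25 without one had 15 higher and 7 lower with FL, and 11 and 8 with DTA. Over all genes the shares were 34.7% and 35.1% with FL, and 35.7% and 36.1% with DTA. An effect of the motif was not tested.

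Among the enzymes at the fork and those that make deoxynucleotides, 3 fell clearly with both constructs. Tk1, the thymidine kinase that salvages thymidine, had log2 ratios of -0.76, -0.81 and -0.75 on the FL arrays and -0.84, -0.84 and -0.83 on the DTA arrays. It was 1.71-fold and 1.79-fold lower, the lowest of the S-phase genes in both (adjusted p 5.94e-06 and 3.3e-06). Pcna, the sliding clamp of the DNA polymerases, had -0.42, -0.45 and -0.45 with FL and -0.51, -0.53 and -0.54 with DTA, or 1.35-fold and 1.44-fold lower (adjusted p 1.81e-05 and 7.77e-06). Tyms, which makes thymidylate, was -0.37 ± 0.016 and -0.41 ± 0.013 (n = 3 arrays, limma adjusted p 2.67e-05 and 1.45e-05), and all 3 of its features on these arrays were lower. The subunits of ribonucleotide reductase did not follow. Rrm1 had 0.10, 0.21 and 0.21 with FL and 0.082, 0.11 and 0.11 with DTA, both higher (adjusted p 0.00223 and 0.0172), though its DTA call was lost without the second DTA array (adjusted p 0.0847) or the third (0.0806). Rrm2 had 0.11, 0.048 and -0.037 with FL, which did not pass the test (adjusted p 0.286, and 0.0429 without the third FL array, with a mean of 0.081). With DTA it had -0.25, -0.21 and -0.22 and fell (adjusted p 0.00118).

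Mitotic genes were among both the clear rises and the clear falls. Mki67, the marker of proliferating cells that coats mitotic chromosomes, had log2 ratios of 0.81, 0.82 and 0.91 on the FL arrays and 0.80, 0.79 and 0.77 on the DTA arrays, or 1.8-fold and 1.73-fold higher (adjusted p 7.98e-06 and 5.95e-06). Top2a, the topoisomerase that untangles sister chromatids, had 0.65, 0.59 and 0.61 with FL and 0.85, 0.92 and 0.90 with DTA, or 1.54-fold and 1.86-fold higher (adjusted p 1.2e-05 and 4e-06). Both genes were at 0.59 or more on all 6 arrays, and for Top2a every DTA array lay above every FL array.

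Cdk1, the kinase that drives entry into mitosis, moved the other way. Its values were -0.54, -0.52 and -0.57 with FL and -0.72, -0.70 and -0.71 with DTA, or 1.46-fold and 1.64-fold lower (adjusted p 1.05e-05 and 4.3e-06). Its partner cyclin Ccnb2 was also lower, at -0.17 ± 0.0083 and -0.24 ± 0.017 (n = 3 arrays, limma adjusted p 0.000384 and 8.95e-05). Cyclin A2, Ccna2, which pairs with Cdk2 and Cdk1, had 0.082, 0.15 and 0.087 with FL and -0.13, -0.11 and -0.15 with DTA. All FL values were above 0 and all DTA values below it (adjusted p 0.0064 and 0.00261). Cdc25c, a phosphatase that activates Cdk1, had -0.17, -0.15 and 0.020 with FL, with the third array on the other side of 0 (adjusted p 0.0697, and 0.00339 without that array, with a mean of -0.16). With DTA it had -0.12, -0.10 and -0.16 (adjusted p 0.0331, and 0.0975, 0.0831 or 0.141 when 1 DTA array was left out). The CHR and CCAAT matches in the printed promoters of Cdk1 and Top2a stood before 1 gene that fell and 1 that rose. This pair, too, was chosen for its opposite directions. Of the 13 genes with a CHR match, 12 of them mitotic, 10 rose and 2 fell with FL, and 7 rose and 2 fell with DTA. The 19 without one had 8 higher and 9 lower with FL, and 6 and 11 with DTA. Of the 22 with a CCAAT match, 14 rose and 5 fell with FL, and 10 rose and 6 fell with DTA. The 10 without one had 4 higher and 6 lower with FL, and 3 and 7 with DTA. Over all genes the shares were 34.7% and 35.1% with FL, and 35.7% and 36.1% with DTA. An effect of the motifs was not tested.

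The spindle checkpoint genes did not move together. Bub1b, the checkpoint kinase-like protein BubR1, had 0.70, 0.72 and 0.71 on the FL arrays and 0.71, 0.76 and 0.77 on the DTA arrays, or 1.64-fold and 1.68-fold higher (adjusted p 6.71e-06 and 4.21e-06). Mad2l1, which binds Cdc20 to hold anaphase, had -0.57, -0.57 and -0.48 with FL and -0.78, -0.75 and -0.75 with DTA, or 1.45-fold and 1.7-fold lower (adjusted p 2.33e-05 and 6.53e-06). No array of either gene was on the other side of 0. The kinase Bub1 had 0.27, 0.31 and 0.36 with FL, 1.24-fold higher (adjusted p 0.000185), and 0.019, 0.11 and 0.071 with DTA (adjusted p 0.0703, or 0.0419 with each array centred on its median, where the mean was 0.080). Ttk, the checkpoint kinase Mps1, was 0.062 ± 0.032 with FL and 0.029 ± 0.023 with DTA, and its FL call (n = 3 arrays, limma adjusted p 0.0466) was lost in each leave-one-out fit except that without the second FL array (0.068 to 0.131), with robust variances (0.0555), with ratios of 0 as missing (0.0571) and with the group fitted alone (0.147). Cdc20, the activator of the anaphase-promoting complex, had 0.16, 0.19 and 0.27 with FL and 0.39, 0.43 and 0.38 with DTA and was higher in both (adjusted p 0.00101 and 6.07e-05).

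Plk1, the polo-like kinase of mitotic entry and spindle assembly, was 0.37 ± 0.046 with FL and 0.40 ± 0.034 with DTA, higher in both (n = 3 arrays, limma adjusted p 7.86e-05 and 4.92e-05). Aurora kinase B, Aurkb, the kinase of the chromosomal passenger complex, had -0.093, -0.069 and -0.018 with FL (adjusted p 0.0942) and -0.43, -0.33 and -0.37 with DTA, where it was 1.3-fold lower (adjusted p 7.03e-05). Survivin, Birc5, of the same complex, had -0.34, -0.35 and -0.32 with FL and -0.52, -0.49 and -0.52 with DTA and was lower in both (adjusted p 3.58e-05 and 7.77e-06). Aurora kinase A, Aurka, of the spindle poles, was 0.14 ± 0.057 with FL (n = 3 arrays, limma adjusted p 0.00492). With DTA it was 0.056 ± 0.018 (n = 3 arrays, limma adjusted p 0.107), but 0.032 without the third FL array and 0.0388 with DTA fitted alone. Nek2, a centrosomal kinase, and Cenpa, the centromeric histone, did not pass the test in either group, with means of 0.0038 and -0.020 for Nek2 and 0.011 and -0.0017 for Cenpa.

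Among the kinesins, Cenpe, which aligns chromosomes, had 0.76, 0.70 and 0.78 on the FL arrays and 0.88, 0.94 and 0.82 on the DTA arrays, averaged over its features (adjusted p 1.43e-05 and 6.57e-06). Kif2c, which removes tubulin from microtubule ends, had 0.49, 0.45 and 0.24 with FL and 0.40, 0.39 and 0.38 with DTA and was higher in both (adjusted p 0.000685 and 0.000662). The FL values of Kif2c spread over a wider range than the DTA values. Kif20a, needed for cytokinesis, was 0.44 ± 0.13 and 0.22 ± 0.040, higher in both (n = 3 arrays, limma adjusted p 0.00051 and 0.00852). Kif11, the motor that pushes spindle poles apart, had 0.14, 0.36 and 0.20 with FL (adjusted p 0.00422). With DTA it had -0.047, -0.10 and -0.092 (adjusted p 0.147), and this became a call without the second FL array (0.0358) and with DTA fitted alone (0.0231).

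Changes of 1.2-fold or more, tested with limma's treat, were called for 7 higher and 8 lower genes with FL, where 11.4% of all genes were called higher and 9.12% lower, and for 7 higher and 8 lower with DTA, where the shares were 13.2% and 10.8%. With FL the higher ones were Bub1b, Cenpe, Kif20a, Mcm2, Mki67, Plk1 and Top2a, and the lower ones Birc5, Ccne2, Cdk1, Cdt1, Mad2l1, Pcna, Tk1 and Tyms. With DTA, Cdc20 stood in the higher set in place of Kif20a, and Aurkb in the lower set in place of Cdt1. Mcm2 was the only S-phase gene in either higher set, and the lower sets held genes of both phases.

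The direct comparison of the constructs asked where the longer and the truncated form differed on the same platform. FL was above DTA for 10 of the 40 genes and below it for 3 (limma, adjusted p under 0.05), where 18.1% of all genes were higher and 16.1% lower. Without the third DTA array the counts were 8 and 2, without the second DTA array 1 gene was still called lower, and without the third FL array 5 genes were. No difference reached 1.5-fold, a size that 2.06% of all genes reached with a call. None was called against a 1.2-fold change by treat, whether adjusted or at an unadjusted p under 0.05 (0.927% of all genes were called higher and 1.82% lower after adjustment). Ordinary limma called the 13 genes with differences of 1.1-fold to 1.25-fold. Their values on each array are given above. The FL arrays did not overlap the DTA arrays for 25 of the 40 genes, 17 above and 8 below, where 50% of all genes had no overlap. A dye effect on a gene drops out of this difference if it was alike for FL and DTA, and that was not tested.

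Among S-phase genes, Rrm2 (0.27, 95% interval 0.16 to 0.38, adjusted p 0.00774), Cdc6 (0.24, 0.16 to 0.32, adjusted p 0.00406) and Mcm4 (0.17, 0.082 to 0.26, adjusted p 0.0162) were higher with FL. Mcm5 was lower with FL (-0.13, -0.21 to -0.062, adjusted p 0.0184). The Mcm4 call was lost when any 1 DTA array was left out (adjusted p 0.0516 to 0.0634), and the Mcm5 call without the second DTA array, the third DTA array or the second FL array (0.0555 to 0.0808). Mcm2 lay at the threshold (-0.13, -0.23 to -0.033) and was called with each array centred on its median (adjusted p 0.0499) and, barely, with the median over features. Without the third FL array, Ccne1 and Cdt1 were also called lower with FL (-0.094 each, adjusted p 0.0472 and 0.0492). For the D-type cyclins the intervals were -0.059 to 0.070 for Ccnd1, -0.38 to 0.016 for Ccnd2 and -0.15 to 0.081 for Ccnd3. For Tk1 and Pcna, which fell in both groups, they were -0.0059 to 0.14 and 0.020 to 0.16.

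The mitotic genes gave 7 higher and 2 lower of 21, where 18.1% of all genes were higher and 16.1% lower. The passenger kinase Aurkb had the widest difference (0.32, 95% interval 0.22 to 0.41, adjusted p 0.00259), followed by the motor Kif11 (0.32, 0.16 to 0.47, adjusted p 0.0133). The Kif11 call was lost without the second DTA array or the third (adjusted p 0.0523 and 0.0525). Bub1 (0.24), Ccna2 (0.24) and Mad2l1 (0.22) followed, with adjusted p of 0.00649, 0.00354 and 0.00752. Birc5 (0.17) and Cdk1 (0.17) were also higher with FL (adjusted p 0.00599 and 0.00731), which for Mad2l1, Birc5 and Cdk1 was a smaller fall with FL than with DTA. Top2a (-0.27, -0.36 to -0.19, adjusted p 0.00276) and Cdc20 (-0.19, -0.29 to -0.098, adjusted p 0.0137) were lower with FL, a smaller rise than with DTA. The Cdc20 call was lost without the second DTA array (adjusted p 0.0581). For Mki67 and Bub1b, both high in each group, the intervals were -0.032 to 0.15 and -0.11 to 0.035. Of the 7 mitotic genes higher with FL than DTA, Mad2l1, Birc5 and Cdk1 fell with both constructs, and Aurkb fell with DTA. Bub1 and Kif11 rose with FL and were not called with DTA in the main fit, and Ccna2 changed sign. Top2a and Cdc20, lower with FL than DTA, rose with both constructs. The DTA ratio enters both the difference and the comparison with untransfected cells, so these directions are not independent.

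**Figure D2:**
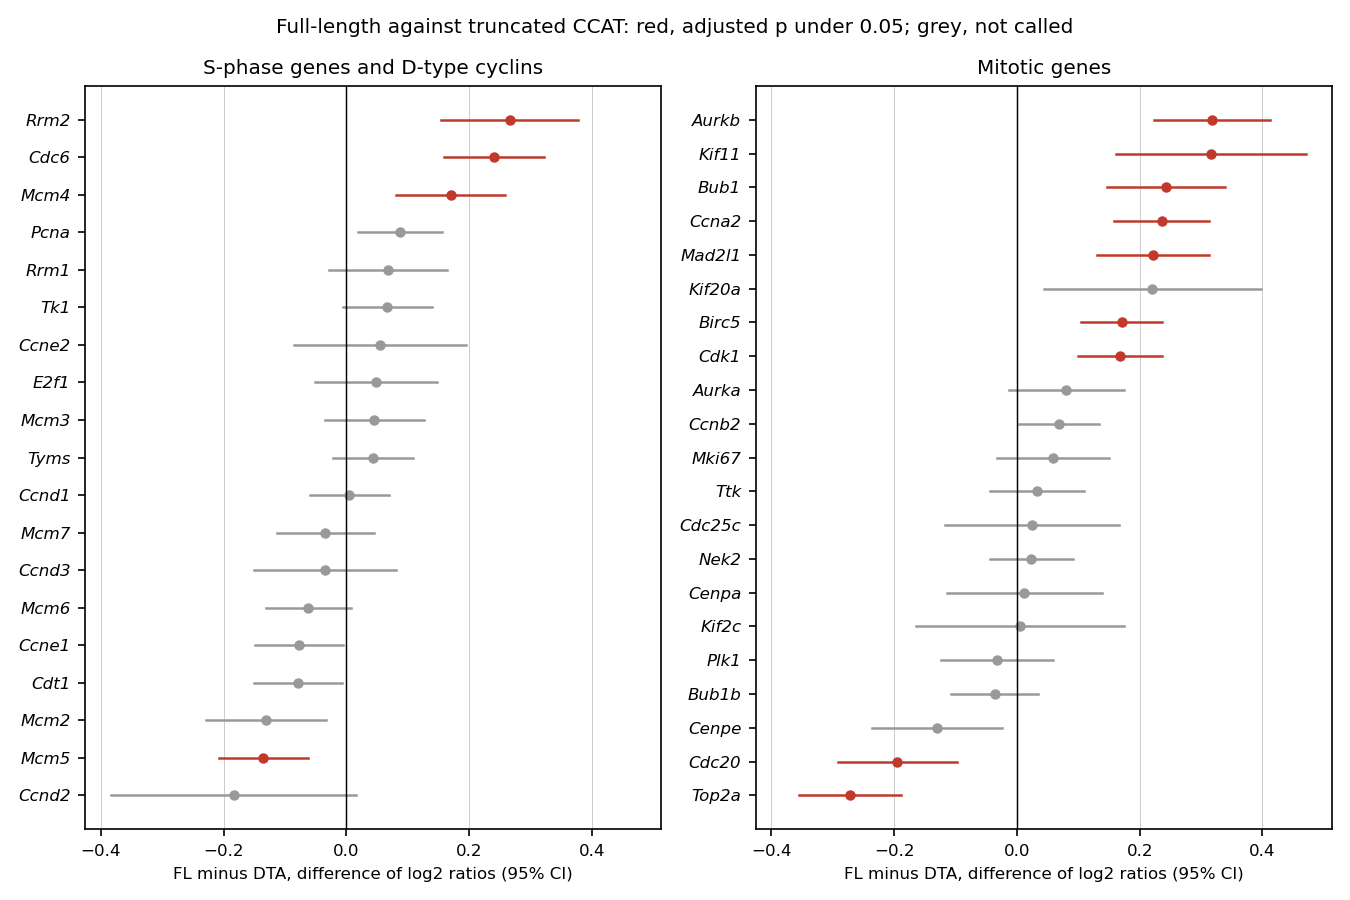
Difference of mean log2 ratios, FL minus DTA (horizontal axis), with 95% confidence intervals, for S-phase genes and D-type cyclins on the left and mitotic genes on the right, red where the limma adjusted p is under 0.05 and grey elsewhere. The 10 genes called higher run from 0.17 (Cdk1) to 0.32 (Aurkb), and the 3 called lower are Mcm5, Cdc20 and Top2a.

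Against cells that received PA1 alone, the changes were smaller and their directions differed in part. Of the 40 genes, 16 rose and 13 fell (limma, adjusted over 19085 genes), where 30.6% of all genes rose and 32.8% fell. The median was 0.026, against -0.0048 for all genes, and no gene reached 1.5-fold, a size that 2.13% of all genes passed. The counts depend on having all 3 arrays: leaving out any 1 gave 8 higher genes, and 7 to 10 lower ones. Among the S-phase genes 9 of 16 rose and 4 fell, with a median of 0.068, and among the mitotic genes 6 of 21 rose and 8 fell, with a median of 0.0018. The median of the S-phase genes lay between 0.063 and 0.084 on the 3 arrays, and that of the mitotic genes between -0.010 and 0.0053. On this comparison the S-phase median was thus the higher of the pair on each array. The interquartile range within a list was 0.18 to 0.21 for the S-phase genes and 0.13 to 0.20 for the mitotic genes.

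Ccnd2 had log2 ratios of -0.36, -0.34 and -0.32, all well below 0, and was 1.27-fold lower with FL than with PA1 alone (adjusted p 0.00207). All 3 of its features were lower. Ccnd1 had 0.043, 0.069 and 0.091 (adjusted p 0.0365, and 0.0711 to 0.146 when 1 array was left out), and Ccnd3 had 0.023, 0.061 and 0.067, which did not pass the test (adjusted p 0.0734).

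Tk1 was again the lowest S-phase gene, with -0.34, -0.34 and -0.37 (1.28-fold lower, adjusted p 0.00207). Pcna had -0.13, -0.13 and -0.11 and Mcm6 had -0.15, -0.12 and -0.14, both lower on all arrays (adjusted p 0.00556 and 0.00533). The other called fall, that of Tyms, was small (-0.080 ± 0.022, n = 3 arrays, limma adjusted p 0.0226) and was lost without any 1 array (adjusted p 0.0519 to 0.11). The highest S-phase genes were E2f1, Cdc6 and Rrm2. E2f1 had 0.30, 0.25 and 0.25, Cdc6 had 0.27, 0.20 and 0.28 and Rrm2 had 0.22, 0.27 and 0.23, or 1.2-fold, 1.19-fold and 1.18-fold higher (adjusted p 0.00269, 0.0038 and 0.00276). These 3 lay above 0.2 on every array.

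Among the helicase subunits, Mcm5 had 0.14, 0.14 and 0.11 and was higher (adjusted p 0.00593). Mcm3 (0.094), Mcm7 (0.058) and Mcm4 were also called higher (adjusted p 0.0101, 0.0331 and 0.0464). Mcm4 had 0.078, 0.27 and 0.14, an uneven set, and its call and that of Mcm7 were lost without any 1 array (adjusted p 0.0607 to 0.121 and 0.0963 to 0.152), and that of Mcm3 without the first array or the second (0.0546 and 0.0666). Mcm2 had 0.044, 0.088 and 0.042 and did not pass the test (adjusted p 0.0574). Ccne2 rose (0.16 ± 0.011, n = 3 arrays, limma adjusted p 0.00355), as did Cdt1 (0.079 ± 0.0013, n = 3 arrays, limma adjusted p 0.0142), the latter lost without any 1 array (0.063 to 0.0834). The Ccne2 rise rested on 1 of its 2 features, at 0.29, while the feature with the accession measured against untransfected cells was at 0.035 (adjusted p 0.19). Ccne1 (-0.011) did not pass the test. Rrm1 had 0.010, 0.027 and -0.46, and the value on array 3 came from 1 feature at -0.94 that read exactly 0 on the other arrays.

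Cdc20 was the lowest mitotic gene, with -0.44, -0.41 and -0.44 (1.35-fold lower, adjusted p 0.00207), and the only one of the 40 called against a 1.2-fold change, where 1.17% of all genes were called higher and 4.17% lower. It had been higher with FL against untransfected cells. Ccna2 had -0.19, -0.21 and -0.20 and Cdc25c had -0.12, -0.16 and -0.19, both lower (adjusted p 0.00269 and 0.00807), the latter not without the second array (0.0508). Aurka was lower (-0.13 ± 0.016, n = 3 arrays, limma adjusted p 0.00625), as were Birc5 (-0.11), Cdk1 (-0.11, -0.13 and -0.086), Ccnb2 (-0.068) and Nek2 (-0.066). The falls of Ccnb2 and Nek2 were lost without any 1 array, that of Cdk1 without the first or the second (adjusted p 0.0559 and 0.064), and that of Birc5 without the second (0.0605). Mad2l1 (-0.044, -0.043 and -0.081) and Ttk (-0.096 ± 0.065, n = 3 arrays) did not pass the test (limma adjusted p 0.0536 and 0.0688). The Mad2l1 mean joined 2 features of opposite sign, of which the one with the accession measured against untransfected cells was called lower (-0.17, adjusted p 0.00416) and the other was at 0.0585 (0.0707).

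Kif11 had the highest mean of the 40 genes, from values of 0.53, 0.10 and 0.47 (adjusted p 0.0457), but its arrays spread widely and the call was lost without the first array (0.157) or the third (0.156). Kif2c had 0.22, 0.19 and 0.17 and Mki67 had 0.12, 0.14 and 0.14, 1.14-fold and 1.1-fold higher (adjusted p 0.00393 and 0.00527). Cenpa (0.11), Aurkb (0.070, 0.075 and 0.041) and Bub1b (0.047, 0.042 and 0.055) were called higher by small margins (adjusted p 0.0197, 0.0364 and 0.0496). The calls of Aurkb and Bub1b were lost without any 1 array, and that of Cenpa without the second or the third. Plk1 (0.022), Bub1 (0.0083, 0.0053 and -0.0083), Kif20a (0.014), Cenpe (0.063, 0.014 and 0.040) and Top2a (-0.010, 0.10 and 0.0018) did not pass the test. Cenpe, Bub1b, Mki67 and Top2a had been 1.54-fold to 1.8-fold higher with FL when untransfected cells were the control. Against PA1 their means over features were within 1.1-fold of the control. Except for Bub1b, these means joined differing features. Mki67 had 0.29 and -0.024, Cenpe 0.20, 0.13 and -0.21, and Top2a 0.11, 0.066 and -0.082. Mki67 and Top2a had 1 feature each against untransfected cells.

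**Figure D3:**
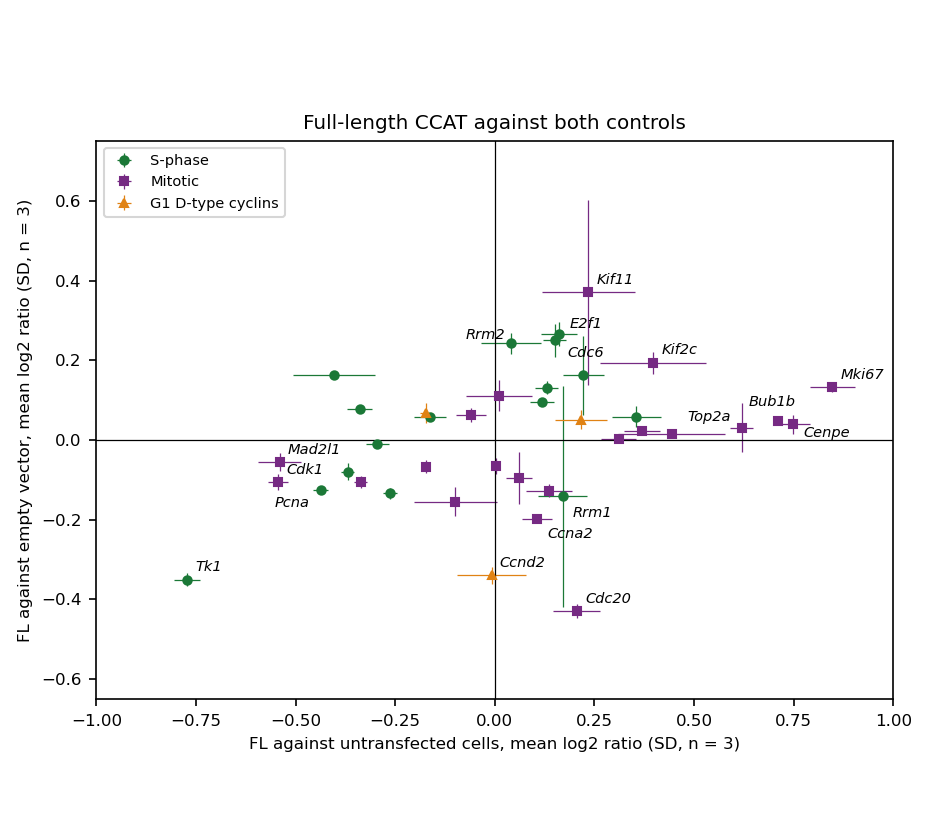
Mean log2 ratio of FL against untransfected cells (horizontal axis) and against the empty vector PA1 (vertical axis) for the 40 genes, with bars for the SD over 3 arrays, S-phase genes as green circles, mitotic genes as purple squares and D-type cyclins as orange triangles. Tk1 is low on both axes, Mki67, Bub1b and Cenpe lie at 0.71 to 0.85 on the horizontal axis and at 0.039 to 0.13 on the vertical axis, and Cdc20 is above 0 on one and lowest on the other.

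Both sets of FL arrays share no labelled sample and were normalized separately on different platforms, but both had FL in the same dye. Of the 40 genes, 23 were called in both, 16 in the same direction and 7 in opposite directions, so 69.6% agreed in sign, against 78.4% of the 7695 genes called in both among all genes. The same direction was seen for Tk1, Pcna, Tyms, Mcm6, Cdk1, Ccnb2 and Birc5, all lower, and for Cdc6, E2f1, Mcm3, Mcm4, Mcm5, Mki67, Bub1b, Kif2c and Kif11, all higher. Opposite directions were seen for Ccnd1, Ccne2, Cdt1 and Mcm7, lower against untransfected cells and higher against PA1, and for Cdc20, Ccna2 and Aurka, higher and then lower. For Ccne2 the feature with the same accession on both platforms was not called against PA1. Among the genes with the same direction, the PA1 means of Tyms, Kif11, Mki67 and Mcm4 joined differing features. Tyms had -0.37, 0.081 and 0.051, and Kif11 had 0.92, 0.19 and 0.0035. Mki67 had 0.29 and -0.024, and Mcm4 had 0.30 and 0.028. The median absolute log2 ratio of the 40 genes was 0.23 against untransfected cells and 0.11 against PA1, and for all genes on both platforms 0.20 and 0.14. The ratio was the larger against untransfected cells for 27 of the 40, and for 10293 of all 16325 genes on both platforms. No array analysed here compared PA1 alone with untransfected cells, so the part of the plasmid in these values was not measured.

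Features of 1 gene did not always agree. Against PA1, 18 of the genes had several features, whose means differed by a median of 0.21 and at most 0.91. The 3 features of Kif11 gave 1.28, 0.18 and 1.29 for the one, 0.29, 0.11 and 0.18 for another and 0.032, 0.024 and -0.045 for the last, so the high mean of Kif11 came from 1 feature on arrays 1 and 3. Cenpe, Top2a and Tyms had features called in both directions. The Tyms features had means of -0.37, 0.081 and 0.051, and the median over features was 0.051 (adjusted p 0.0559) where the mean was below 0. One Mki67 feature averaged 0.29 and the other -0.024. Features of Mad2l1, Rrm1 and Ccne1 also lay on both sides of 0. For Ccne2, Mcm4, Cdc25c and Cenpa, whose means were called, 1 of the 2 features did not pass the test (0.035, 0.028, -0.082 and 0.059, adjusted p 0.19, 0.686, 0.0647 and 0.12). Against untransfected cells only Tyms and Cenpe had several features, and those of Tyms agreed in direction. For Cenpe, 1 feature had 1.16, 1.03 and 1.20 with FL and 1.62, 1.70 and 1.49 with DTA, and the other 0.36, 0.37 and 0.37 with FL and 0.14, 0.17 and 0.14 with DTA. The first was lower with FL than with DTA (-0.48) and the second higher (0.22), so the mean difference of Cenpe (-0.13, adjusted p 0.064) describes neither. Which transcripts the features detect was not tested.

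**Figure D4:**
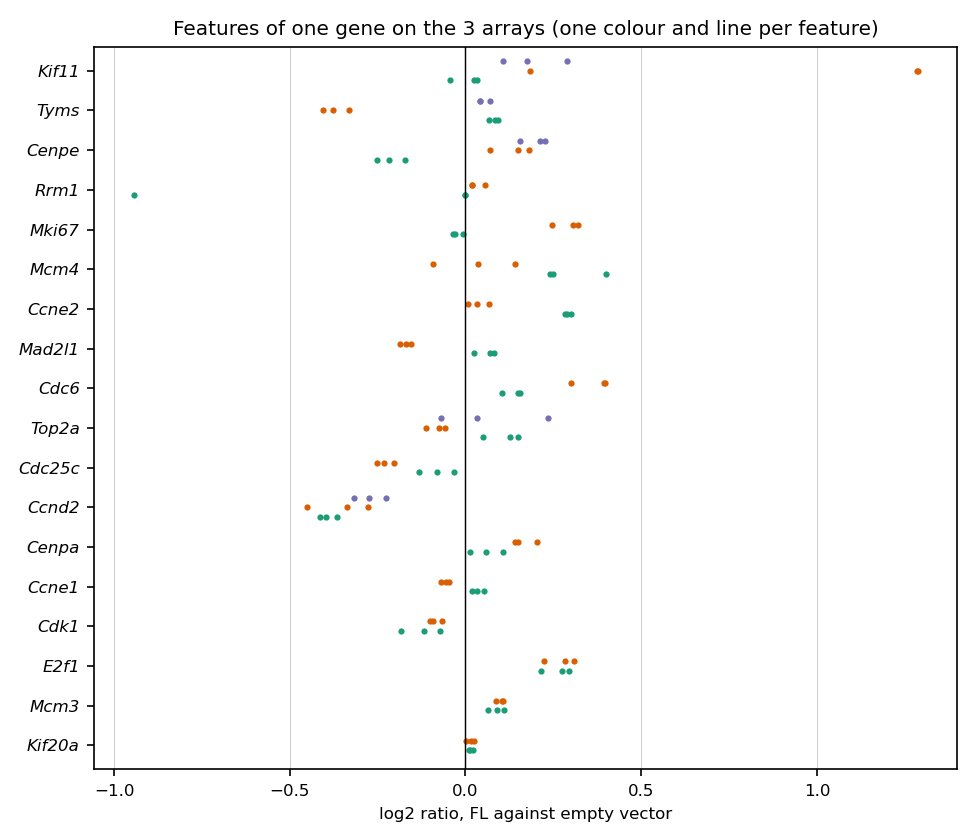
Log2 ratio of FL against empty vector (horizontal axis) of every feature of the 18 genes with several features, with 1 colour and 1 line of points per feature and 3 points for the 3 arrays. Kif11 has 1 feature with values near 1.28 on arrays where its other features stay below 0.3, and the Tyms and Cenpe features lie on both sides of 0.

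The other genes of the pathway, from lists of known regulators, gave the following counts. Among all genes, 34.7% rose and 35.1% fell with FL, and 35.7% rose and 36.1% fell with DTA. For FL minus DTA 18.1% were higher and 16.1% lower, and against PA1 30.6% rose and 32.8% fell. These shares also stand beside the counts of the other lists below. Of 10 CDK inhibitors and pocket proteins, which hold cells in G1, 6 rose and 3 fell with FL and 4 rose and 5 fell with DTA. Cdkn2a, the Ink4a and Arf locus, had a mean of 1.84 ± 0.025 with FL and 1.31 ± 0.058 with DTA (SD, n = 3 arrays, limma adjusted p 1.53e-06 and 2.48e-06). Cdkn1a, the p53 target p21, had 1.02 ± 0.021 and 0.65 ± 0.027 (n = 3 arrays, limma adjusted p 2.73e-06 and 5.51e-06). With FL both means were above those of all 40 genes, whose highest was 0.85. Both were higher with FL than with DTA (differences 0.53 and 0.37, adjusted p 0.000812 and 0.000941), and against PA1 they were 0.27 and 0.21 (adjusted p 0.00325 and 0.00265). Rb1, the retinoblastoma protein, was -0.39 with DTA and 0.46 higher with FL than with DTA (adjusted p 3.9e-05 and 0.000822). Rbl2, its relative p130, was 0.21 against PA1, and Cdkn2d, an Ink4 inhibitor, 0.20 with FL (adjusted p 0.00265 and 0.00102). Of the list, 5 were higher and 1 lower with FL than with DTA, and 4 rose and 2 fell against PA1.

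Of 15 other regulators of G1 and S phase measured on the 6 arrays, 7 rose and 4 fell with FL, 9 rose and 5 fell with DTA, and 6 were higher and 3 lower with FL than with DTA. Tfdp2, a dimer partner of E2F, was 1.02 with FL and 1.53 with DTA (adjusted p 9.95e-06 and 3.04e-06). Mycn, the oncogene of neuroblastoma, was 1.31 with DTA and -1.48 in FL minus DTA (adjusted p 2.42e-06 and 0.000185), a difference larger than that of any of the 40 genes. Cdk4, the kinase of the D-type cyclins, was 0.44 with FL (adjusted p 2.64e-05). Cdk7, the CDK-activating kinase, was -0.30 with DTA and 0.30 in FL minus DTA (adjusted p 6.78e-05 and 0.00152). The growth regulator Myc was 0.35 with FL against untransfected cells and 0.35 against PA1 (adjusted p 0.000114 and 0.00207). Against PA1, 5 of 16 rose and 1 fell, with E2f2 at -0.19 and E2f4 at 0.18 (adjusted p 0.00285 and 0.00489).

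Of 36 other replication genes, 10 rose and 18 fell with FL and 11 rose and 19 fell with DTA, with medians of -0.076 and -0.18. Prim1, the primase subunit, was -0.61 and -0.85 (adjusted p 8.38e-06 and 2.73e-06), and Gmnn, the inhibitor of Cdt1, -0.33 and -0.43 (adjusted p 3.53e-05 and 1.16e-05). Mcm10, which acts in origin firing, was -0.44 with FL, and Rpa3, of the single-strand binding complex, -0.72 with DTA (adjusted p 3.85e-05 and 6.91e-06). FL was above DTA for 15 and below it for 2, with a median difference of 0.096 where all genes had 0.0025. Orc6, Orc1 and Prim1 differed by 0.33, 0.25 and 0.24 (adjusted p 0.00129, 0.00218 and 0.00216). Against PA1, 15 of 37 rose and 3 fell. The clamp loader subunits Rfc3 and Rfc1 were 0.35 and 0.21, and Slbp, which binds histone mRNA, 0.21 (adjusted p 0.00209, 0.0029 and 0.00259).

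Of 45 other mitotic genes, 21 rose and 13 fell with FL and 18 rose and 19 fell with DTA, with medians of 0.031 and 0.014. The condensin subunit Smc2 was 0.50 and 0.61 (adjusted p 1.39e-05 and 5.99e-06), and the kinetochore protein Spc25 -0.54 and -0.81 (adjusted p 1.91e-05 and 4.93e-06). Cks1b, a Cdk1-binding protein, was -0.51 with DTA (adjusted p 7.49e-06). FL was above DTA for 17 and below it for 6. Kif18a, a kinesin, and Nusap1, a spindle protein, differed by 0.43 and 0.36, and Wee1, the kinase that inhibits Cdk1, by -0.82 (adjusted p 0.000916, 0.00166 and 0.0014). The kinase Melk was 0.42 with FL against untransfected cells and 0.37 against PA1 (adjusted p 2.66e-05 and 0.00207). Against PA1, 13 of 46 rose and 16 fell, with Lin9, a MuvB subunit, at 0.32 and Cks2 at -0.28 (adjusted p 0.00207 and 0.00219).

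Grouped by promoter letters, the measured genes with an E2F match had 3 higher and 4 lower of 7 with FL and 2 higher and 5 lower with DTA, with medians of -0.16 and -0.13, while the 25 without one had 15 higher and 7 lower with FL and 11 higher and 8 lower with DTA. Those with a CHR match had 10 higher and 2 lower of 13 with FL and 7 higher and 2 lower with DTA, with medians of 0.23 and 0.39, and the 19 without one had 8 higher and 9 lower with FL and 6 higher and 11 lower with DTA. Against PA1 the genes with an E2F match had 5 higher and 2 lower, and those without one 7 higher and 8 lower. Those with a CHR match had 5 higher and 4 lower, and those without one 7 higher and 6 lower. Of all genes, 34.7% were called higher and 35.1% lower with FL, 35.7% and 36.1% with DTA, and 30.6% and 32.8% against PA1. These counts describe the few promoters found, and the motif groups largely repeat the S-phase and mitotic lists.

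Markers of other cells that a sample could hold were read beside these values. The shares over all genes were 34.7% higher and 35.1% lower with FL, 35.7% and 36.1% with DTA, and 30.6% and 32.8% against PA1. With FL against untransfected cells, 2 of 8 fibroblast markers were higher and 4 lower, 0 of 5 immune markers higher and 2 lower, and 1 of 5 glial markers higher and 1 lower. With DTA the fibroblast markers had 2 higher and 2 lower, the immune markers 1 and 3, and the glial markers 0 and 1. Against PA1 the fibroblast markers had 0 higher and 3 lower, the immune markers 0 and 0, and the glial markers 0 and 2. Of 11 neuroblastoma and sympathoadrenal markers, 3 rose and 5 fell with FL, 5 rose and 4 fell with DTA, and 2 rose and 3 fell against PA1. Their part in the values of the cell cycle genes was not tested.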

How the data were processed

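Two-colour Agilent arrays measured Neuro2A RNA, Cy3 for CCAT and Cy5 for control, per the labels. The authors deposited log10 ratios from Rosetta Luminator, per the design text. How background and dyes were handled, and which channel was divided by which, is not stated in those sources, and the base was inferred from a floor at exactly -2. They were converted to log2, and no column of another sample was used (0 found). Features with 1 symbol in the platform annotation were kept (18218 of 22393 on the 6 arrays and 32042 of 43790 on the 3), symbols were updated through the mouse RefSeq gene table (5 and 8 features changed), and features of a gene were averaged. Groups came from titles and source names.

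limma 3.58.1 in R 4.3.3 (lmFit, eBayes, Benjamini-Hochberg over all named genes, threshold 0.05) was fitted to the 6 arrays against untransfected cells together (4 residual degrees of freedom) and to the 3 arrays against PA1 alone (2). The fit was also run on simulated independent noise with added shifts. That run does not bear on dye effects, on spread shared by arrays or on changes smaller than those shifts. The number of arrays limits the precision. The genes and lists were chosen with earlier results of these data known. Values on every array are given for the D-type cyclins, for the 3 highest and 3 lowest called S-phase and mitotic genes of each comparison and for genes called in opposite directions with FL and DTA, and up to 3 genes with the smallest p are named from each other list. The alternatives tried were quantile normalization, array centring, single features, their median, dropping ratios of 0, a filter on genes under 0.2 in every array, robust eBayes, symbols as annotated, genes on a plateau (a value shared by many features) left out, treat at 1.2-fold, each array left out, each group fitted alone and a replicate block. Sequences came from RefSeq (GRCm38.p6). Tables and figures were made with Python 3.11.15, pandas 2.3.3 and matplotlib 3.10.9.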

Additional observations from a re-analysis of the deposited data

Results flagged for a closer look

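The 13 genes whose response differed between the full-length and the truncated construct, by limma's test of the difference (adjusted p under 0.05, 3 arrays a group), are the results that call for a closer look. The 10 higher and 3 lower of 40 stand beside 18.1% of all genes called higher and 16.1% lower. Their total of 13 is near the share over all genes, 5644 of 16501. More of the calls were on the higher side than among all genes, and that lean was not tested. FL was above DTA for the S-phase genes Rrm2 (0.27), Cdc6 (0.24) and Mcm4 (0.17) and for the mitotic genes Aurkb (0.32), Kif11 (0.32), Bub1 (0.24), Ccna2 (0.24), Mad2l1 (0.22), Birc5 (0.17) and Cdk1 (0.17), as differences of mean log2 ratios. It was below DTA for Mcm5 (-0.13), Top2a (-0.27) and Cdc20 (-0.19). Every one was under 1.5-fold, a size that 2.06% of all genes reached with a call, and treat at 1.2-fold called 0 of them. Cdc6 and Ccna2 rose with FL and fell with DTA. The calls of Mcm4 and Mcm5 were lost with the replicate block, and those of Mcm4, Mcm5, Kif11 and Cdc20 when 1 or another array was left out. No cause of these differences was tested.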

How the results depend on the processing

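Against untransfected cells, array centring, quantile normalization, the median over features, dropping ratios of 0, the filter on barely varying genes, robust variances, annotated symbols, leaving out plateau genes and fitting each group alone kept the counts of called genes within 1.5 times, and no called gene changed sign under them. Against 1.2-fold, treat called 7 higher and 8 lower of the 40 genes with FL (3388 of all genes), 7 and 8 with DTA (3970), 0 and 0 for FL minus DTA (454) and 0 and 1 for FL against PA1 (1019), since it tests a larger change. For FL minus DTA, quantile normalization also called Pcna (0.10), Mki67 (0.16) and Kif20a (0.25), and the median over features called Tyms (0.10) and, at the threshold, Mcm2 (-0.13), which array centring also called. The filter, which tests fewer genes, left 6 higher and 4 lower genes against PA1 and 7627 of all. Plateaus held 0 of the 40 genes.

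Leaving out 1 array gave 20 to 21 higher and 13 to 14 lower genes with FL (10346 to 11347 of all), 12 to 17 and 16 to 19 with DTA (10110 to 12563), 8 to 11 and 1 to 5 for FL minus DTA (3414 to 5836, with 3729, 3594 and 3414 without DTA arrays 1, 2 and 3), and 8 higher and 7 to 10 lower against PA1 (8402 to 9788). Values called in the main or the other setting that changed sign, all by feature choice, were those of Tyms against PA1 (0.051 by the median over features, 0.081 and 0.051 by single features), Cenpe (0.22 by 1 feature for FL minus DTA, -0.21 against PA1), and Mki67 (-0.024) and Top2a (-0.082) against PA1. Values not called in either setting also changed sign: by single features Mad2l1 (0.0585), Rrm1 (0.031) and Ccne1 (0.035) against PA1 and Tyms (-0.0090) for FL minus DTA, by array centring Ccnd2 with FL and Cenpa with DTA, by quantile normalization Plk1 and Bub1b for FL minus DTA, and others when 1 array was left out.

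Same-numbered FL and DTA arrays did not deviate together (r of -0.043, 0.091 and -0.002 across genes), so the numbers give no pairing. With the replicate block, 9 genes were higher and 2 lower (4014 of all genes), and Mcm4 (adjusted p 0.0503) and Mcm5 (0.0604) were no longer called. The arrays carry no signal over background here, so what dim signal limits could not be judged.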
